A study of Drosophila melanogaster with 81 samples.

Results

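The 5 genes described here, vnd, ind, Dr (also called msh), SoxN and D (Dichaete), pattern the neuroectoderm of the fly embryo, the sheet of cells that gives rise to the ventral nerve cord. They were taken by name, as 5 of the 13946 protein-coding genes of the gene table, and each was read in a window of its dm6 gene span with 2 kb on each side. Positions within a window are given in kb from the left end of the gene, the end with the lower coordinate, because the table holds no strand. The vnd window (gene at X 582121–598151) measured 20031 bp and partly overlapped the gene spdi. The ind window (3L 15042799–15043924) measured 5126 bp, lay inside the gene Sytbeta and partly overlapped Rpn12R. The windows of Dr (3R 29556386–29565244), SoxN (2L 8825645–8829670) and D (3L 14175610–14178620) measured 12859, 8026 and 7011 bp and met no other gene of the table.

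The neuroectoderm is divided along the dorsoventral axis into columns, each marked by a homeobox transcription factor. The gene vnd acts in the ventral column, ind in the intermediate column and Dr in the dorsal column, and a more ventral gene represses the more dorsal ones. SoxN and D encode Sox proteins with an HMG-box DNA-binding domain. Both proteins are made in the neuroectoderm and act with the column genes in forming neuroblasts, the neural stem cells. Genes of this kind are held off in other parts of the embryo by Polycomb proteins, whose mark is H3K27me3.

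Histone marks were mapped by CUT&Tag, in which an antibody tethers a transposase that cuts the DNA around the mark, in whole embryos from 30 min egg lays kept at 25°C. The wild-type group was w1118, and the mutant group, called HisC here, carried Df(2L)HisC, a deficiency of the replication-dependent histone gene cluster, on both homologues. One HisC homologue also carried P{GAL4-twi.2xPE} and the other P{UAS:eYFP}AH2, and mutants were picked by eYFP. For the HisC group of H3K27me3 at 4.5 to 5 h the labels give Df(2L)HisC with no transgene. The w1118 embryos carried neither transgene, so the deficiency, the transgenes and the picking cannot be told apart. H3K27me3, H3K36me3, H3K4me3, H3K27ac, H2AK9ac and H2BK16ac each had lists for embryos aged 4.5 to 5 h and 5.5 to 6 h, and for H3K4me3 there were lists of 3.5 to 4 h as well.

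Each group of 2 or 3 libraries had 1 list of peak positions, 26 lists from 59 libraries in all, with 4588 to 13436 peaks covering 5.47 to 13.7 Mb per list. The measured quantity is the number of bases of a window inside peaks. Depth and peak height are unknown, and 0 bp means that no peak was called. With 1 list per group there is no replicate check, no error and no test for any value below. A gene was counted as lower or higher in HisC only where the covered length differed at least 1.5-fold in 1 direction at both later times, with at least 500 bp in the larger list, and such counts are set beside the share of all protein-coding genes that met the same rule. In whole embryos, fewer cells with a mark and less of the mark per cell cannot be told apart. Unless stated otherwise, pairs of values are for 4.5 to 5 h and then 5.5 to 6 h.

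**Figure D1:**
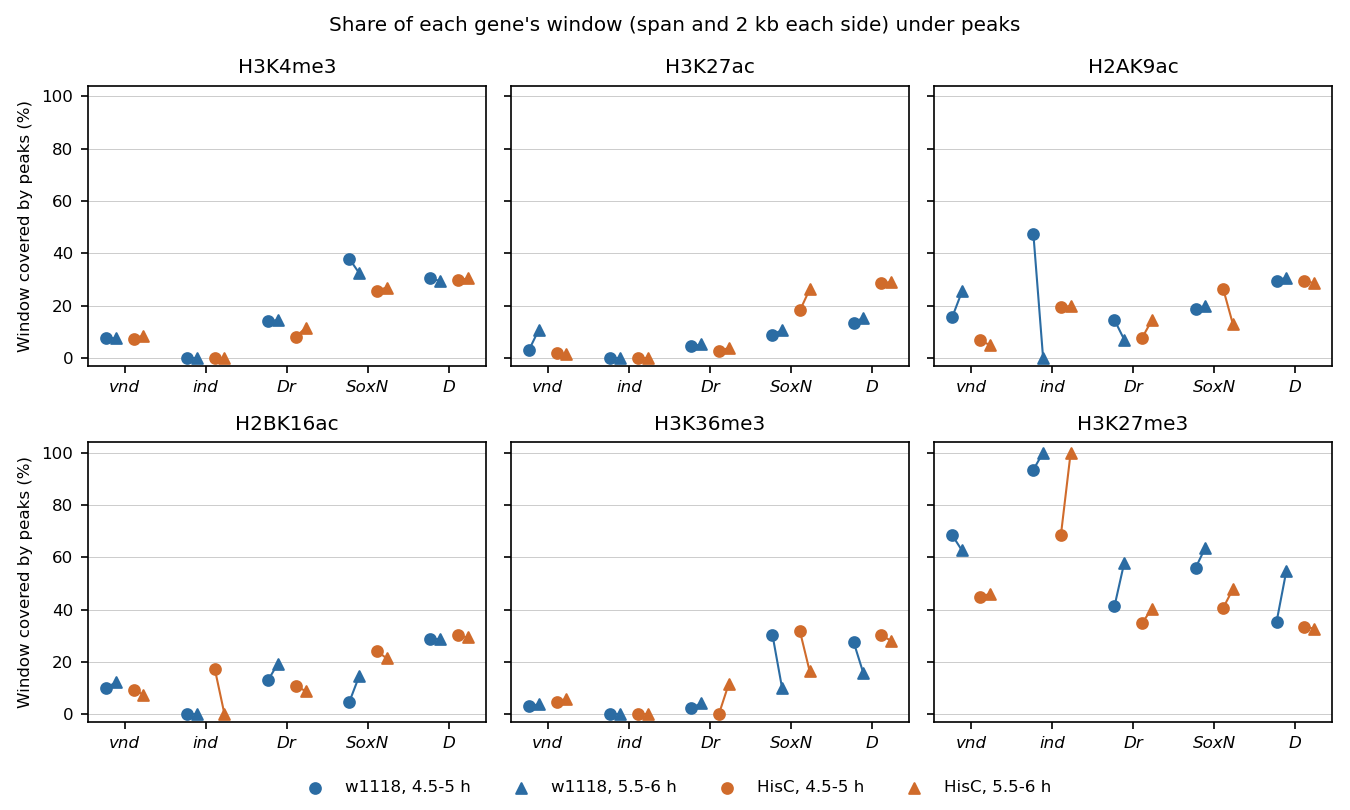
Percent of each gene's window covered by peaks, by mark, with 1 point per gene and list. The horizontal axis gives the gene, and colour gives the genotype. Circles are lists of 4.5 to 5 h and triangles lists of 5.5 to 6 h. The H3K4me3 lists of 3.5 to 4 h are not drawn. H3K27me3 covered ind most completely, at 68.6% to 100%, and ind had 0% of H3K27ac and H3K36me3 in all lists, while D and SoxN stood higher in HisC for H3K27ac.

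All 5 genes lay under H3K27me3 in both genotypes. In every later list each window was covered to a larger share than in at least 92.6% of protein-coding genes. In w1118, ind was covered to 93.5% and 100% of its window, vnd to 68.4% and 62.6%, and SoxN to 55.9% and 63.6%. Dr was covered to 41.2% and 57.8% in w1118 and D to 35.4% and 54.8%. The intermediate-column gene was thus highest at both times, vnd and SoxN exchanged places between times, and D was lowest. No neighbours in this order can be separated, since no spread between libraries is known. The order also depended on the window. With 5 kb on each side, w1118 at 4.5 to 5 h had SoxN at 68.4%, vnd at 58.8% and Dr at 58.2%. There ind stood at 50.5% and D at 39.9%. At 5.5 to 6 h ind was again highest, at 73.2%, and D lowest, at 54.5%.

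H3K27me3 coverage was lower in HisC than in w1118 in 9 of the 10 gene and time pairs and equal in 1. The ventral-column gene vnd was covered over 13711 and 12538 bp in w1118 against 8957 and 9206 bp in HisC. Dr was covered over 5304 and 7435 bp in w1118 against 4476 and 5171 bp in HisC, and SoxN over 4489 and 5103 bp against 3260 and 3830 bp. For ind the values were 4791 and 5126 bp in w1118 against 3516 and 5126 bp in HisC, so the whole window was covered in both genotypes at the later time. For D they were 2481 and 3841 bp in w1118 against 2348 and 2292 bp in HisC, which differed little at the earlier time. Both HisC lists lay below both w1118 lists for vnd, Dr, SoxN and D, 4 of the 5 genes, against 60.9% of the 1741 protein-coding genes with at least 500 bp of H3K27me3 in both w1118 lists.

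By the 1.5-fold rule 0 of the 5 genes were lower, against 5.09% of all protein-coding genes and 40.8% of the 1741 marked genes. None of the 5 was higher, against 15.3% of all genes and 6.72% of the 1741 marked genes. Differences of any size in the same direction at both times were found for 4 of the 5, against 65.9% of those 1741 genes that were lower in this way. The median difference of the 5 genes was -12.4 percentage points of the window, beside -11.9 for the 1741 genes. In points of the window the median of the 5 genes was thus close to that of marked genes in general, while the median coverage went from 59.8% to 44.2% for the 5 genes and from 35% to 19% for the 1741. In the genome as a whole the H3K27me3 lists held 4605 and 4588 peaks in w1118 and 8320 and 8313 shorter peaks in HisC, covering 10.9 and 10.9 Mb and 9.13 and 10.9 Mb.

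**Figure D2:**
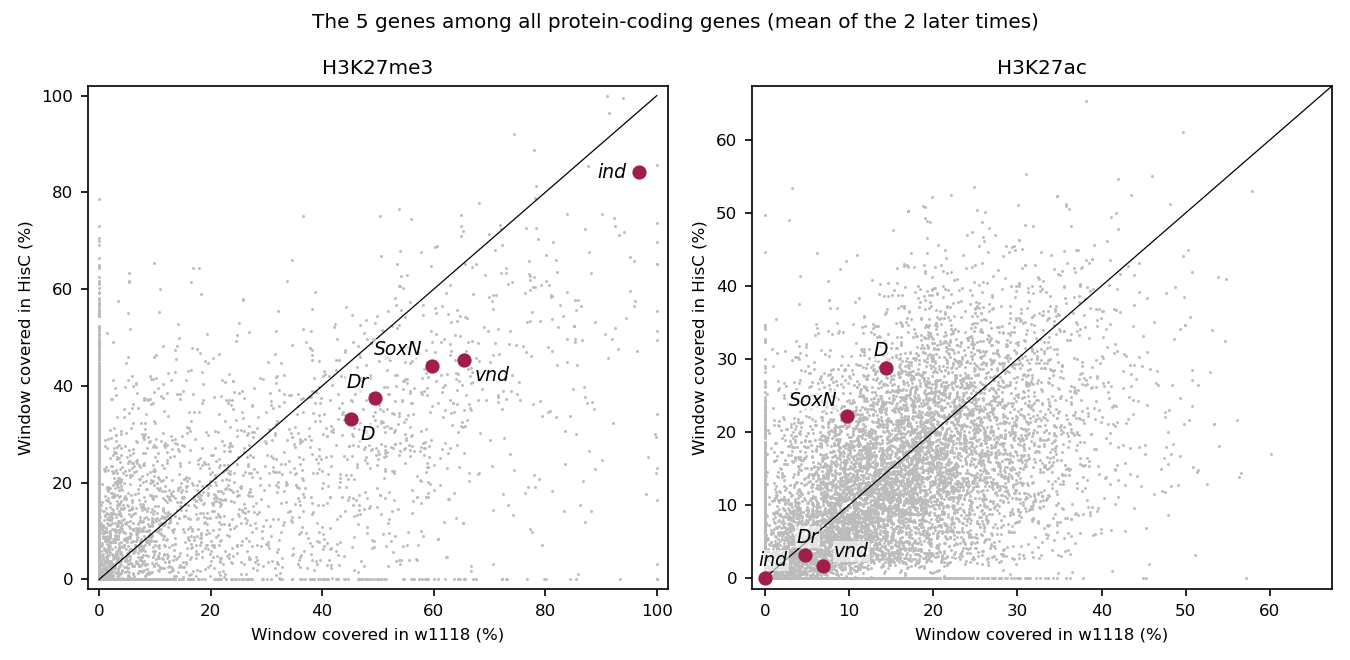
Percent of the window covered in w1118 (horizontal) and HisC (vertical), as the mean of the 2 later times, for H3K27me3 (left) and H3K27ac (right); grey points are all 13946 protein-coding genes, red points the 5 genes, and the line marks equal values. All 5 genes lie below the line for H3K27me3, within the cloud of other genes, and SoxN and D lie above it for H3K27ac.

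The split of H3K27me3 between genes and their surroundings, which was examined after the window values had been seen, placed most of the difference at the Sox genes outside the gene. Over the SoxN span itself H3K27me3 covered 2489 and 2200 bp in w1118 against 2543 and 3089 bp in HisC. In the 5 kb on each side of SoxN, with the span left out, it covered 7109 and 6949 bp in w1118 against 1846 and 2351 bp in HisC, 3.85-fold and 2.96-fold less in HisC. In both w1118 lists SoxN lay in a long H3K27me3 peak, of 14871 and 6641 bp, that reached well beyond its left end, and in HisC in a peak of 3260 and 3830 bp that lay largely over the gene.

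D showed the same arrangement. Its span held 2481 and 3011 bp in w1118 against 2348 and 2292 bp in HisC. Its 5 kb flanks held 2713 and 4079 bp in w1118 against 336 and 338 bp in HisC, 8.07-fold and 12.1-fold less. In HisC H3K27me3 thus lay over the D gene with little of it in the DNA on either side.

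The column genes were less uniform. Around Dr the flanks held 6408 and 6217 bp in w1118 against 3534 and 2599 bp in HisC, and the span 4562 and 6597 bp against 3865 and 4296 bp. The single ind peak covered the whole 1126 bp gene in all 4 lists, and its flanks held 4493 and 7018 bp in w1118 against 2390 and 4735 bp in HisC. For vnd the span itself was lower, at 10244 and 9100 bp in w1118 against 5644 and 6308 bp in HisC, and the flanks held 5062 and 5282 bp against 3856 and 3467 bp. The flanks of Dr, SoxN and D met the 1.5-fold rule, 3 of 5 genes, against 43.6% of the 2042 genes with at least 500 bp there in both w1118 lists. The spans of 0 of the 5 met it, against 37.6% of 1254 genes. Lower flanks were thus common among marked genes.

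D had 1 stretch of DNA inside a peak of every list. A stretch of 863 bp (3L 14177275–14178137), from 1.67 to 2.53 kb from the left end of D, lay inside a peak in all 26 lists, of both genotypes, all 6 marks and all times. At least 500 bp of this kind was found for 5 protein-coding genes, 0.0359% of all. Besides D these were disco with 864 bp, CG18747 with 554 bp, Mes2 with 553 bp and Sox15 with 534 bp, named here after their values were seen. Sox15 encodes another Sox protein. Over the genome 54 stretches with 22 kb in total lay in a peak of all lists. The lists used here included no control without a mark antibody, so signal unrelated to the marks was not tested for.

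The D peaks were alike in place as well as in presence. The peak over the stretch was 1900 to 2200 bp wide in 19 of the 26 lists and began 400 to 750 bp from the left end in 21. Its start lay between -415 and 1665 bp with a median of 547 bp, and its end between 2527 and 3425 bp with a median of 2606 bp. Its width ran from 939 bp, for H3K27ac in w1118 at 4.5 to 5 h, to 3841 bp, for H3K27me3 in w1118 at 5.5 to 6 h, with a median of 2064 bp. H3K4me3, the mark of active promoters, covered 2029, 2133 and 2064 bp of the D window in w1118 from the earliest to the latest time and 2064, 2072 and 2132 bp in HisC. H2AK9ac covered 2064 and 2151 bp in w1118 against 2068 and 2002 bp in HisC, and H2BK16ac covered 2020 and 2017 bp against 2109 and 2053 bp. For these 3 marks all lists of both genotypes lay between 2002 and 2151 bp at D. H3K36me3, a mark of transcribed gene bodies, covered 1941 and 1107 bp in w1118 against 2117 and 1973 bp in HisC.

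The other genes shared less DNA among the lists. For vnd, 218 bp (X 590630–590847), from 8.51 to 8.73 kb from the left end, lay in all 26 lists. No base of the SoxN window was in more than 23 lists, of the Dr window in more than 19 and of the ind window in more than 9. Taken by genotype, the 13 w1118 lists shared 907 bp at D, 484 bp at vnd and 0 bp at SoxN, while the 13 HisC lists shared 1947 bp at D, 812 bp at SoxN and 218 bp at vnd. At least 500 bp was shared by all w1118 lists at 34 genes, 0.244% of all, and by all HisC lists at 198 genes, 1.42%, so the larger shared stretches in HisC were not limited to the Sox genes.

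**Figure D3:**
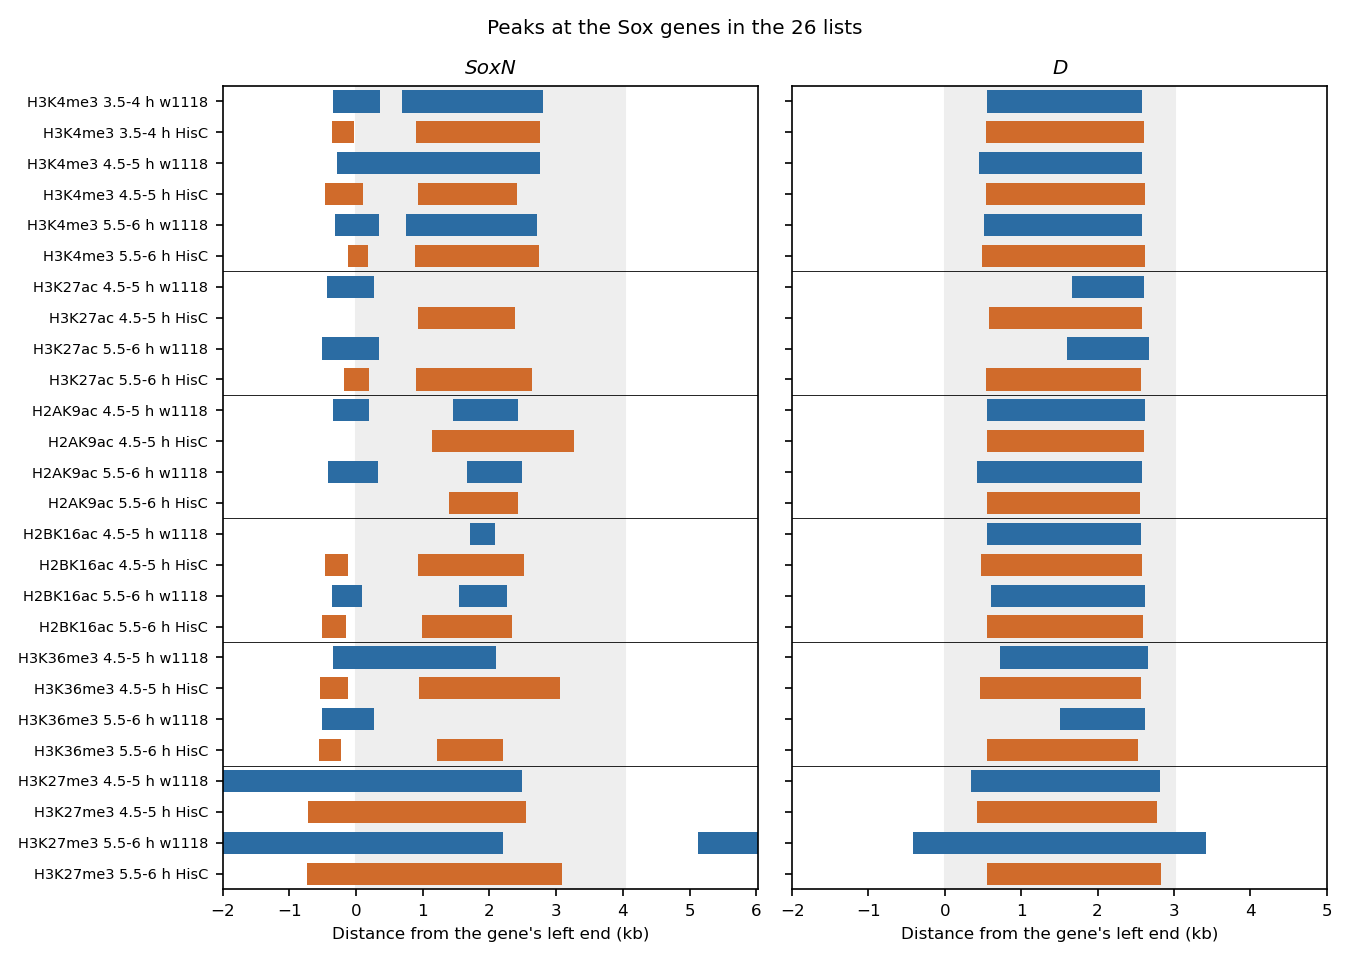
Peaks over the windows of SoxN and D, 1 line per list, against the distance in kb from the left end of the gene, with the gene span marked and bars for called peaks. Peaks of all 26 lists cover the stretch from 1.67 to 2.53 kb in D, and the H3K27ac peak of SoxN lies at the left end in w1118 and mainly further inside the gene in HisC.

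H3K27ac, the acetylation of active promoters and enhancers, was higher in HisC at both Sox genes. SoxN was covered over 715 and 854 bp in w1118 against 1457 and 2104 bp in HisC, 2.04-fold and 2.46-fold more. D was covered over 939 and 1076 bp in w1118 against 1998 and 2035 bp in HisC, 2.13-fold and 1.89-fold more. Both HisC lists lay above both w1118 lists at both genes, against 16.4% of all protein-coding genes. By the 1.5-fold rule SoxN and D were 2 of the 5 genes, against 8.36% of all protein-coding genes that were higher in H3K27ac. At the 2-fold setting SoxN met the rule and D did not.

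The H3K27ac peaks of the Sox genes were also in different places. In w1118 the SoxN peak spanned the left end of the gene, from -0.439 to 0.275 kb and from -0.51 to 0.343 kb. In HisC at 4.5 to 5 h the only peak ran from 0.926 to 2.38 kb and shared 0 bp with that of w1118. At 5.5 to 6 h HisC had a peak of 362 bp at the left end and a second of 1742 bp from 0.897 to 2.64 kb. Within 500 bp of either end of SoxN, H3K27ac was therefore lower in HisC, at 715 and 844 bp in w1118 against 0 and 362 bp in HisC, so the direction depended on the window. At D the w1118 peaks ran from 1.67 to 2.6 kb and from 1.6 to 2.67 kb, and the HisC peaks began further left, at 0.581 and 0.542 kb, and ended at 2.58 kb in both lists. Within 500 bp of either end of D little was covered, 93 and 162 bp in w1118 against 68 and 66 bp in HisC.

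The stretch inside SoxN that carried H3K27ac in HisC carried H3K4me3 in both genotypes. H3K4me3 covered 2822, 3040 and 2606 bp of the SoxN window in w1118 and 2184, 2061 and 2160 bp in HisC, from the earliest to the latest time. HisC was lower at each time by less than 1.5-fold. H2BK16ac at SoxN covered 372 and 1156 bp in w1118 against 1943 and 1710 bp in HisC, of which the second pair fell short of the rule. H2AK9ac covered 1498 and 1587 bp in w1118 against 2127 and 1042 bp in HisC, and H3K36me3 covered 2439 and 786 bp against 2539 and 1312 bp, so neither differed in 1 direction past the rule. By that rule 0 of the 5 genes were higher in H2BK16ac, against 10.7% of all genes.

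The ventral-column gene vnd had less H3K27ac and H2AK9ac in HisC. H3K27ac covered 632 and 2160 bp in w1118 against 388 and 295 bp in HisC. In w1118 at 5.5 to 6 h it formed 3 peaks, at 8.16 to 8.91, 13.6 to 14.4 and 17.4 to 18 kb. The last lay beyond the right end of vnd, and HisC had a peak at the first place only. This was 1 of the 5 genes, against 14.4% of all genes that were lower in H3K27ac, and vnd no longer met the rule at 2-fold. H2AK9ac at vnd covered 3118 and 5091 bp in w1118 against 1336 and 995 bp in HisC, again 1 of the 5 genes, against 8.33% of all genes, and 0 were higher, against 7.93%. H2BK16ac covered 1979 and 2443 bp in w1118 against 1882 and 1483 bp in HisC, which fell short of the rule at the earlier time. Over the vnd span alone it covered 577 and 1438 bp in w1118 against 1882 and 876 bp in HisC. Its direction at the earlier time thus depended on the window.

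Methylation of active chromatin at vnd went the other way or did not differ. H3K36me3 covered 587 and 761 bp in w1118 against 906 and 1171 bp in HisC, 1 of the 5 genes, against 5.77% of all genes that were higher. That result held in 3 of 8 alternative settings. H3K4me3 covered 1539 and 1493 bp in w1118 against 1477 and 1702 bp in HisC. At 3.5 to 4 h it covered 2008 bp in 2 peaks in w1118 and 2987 bp in 8 shorter peaks in HisC. In all 6 H3K4me3 lists a peak began 8.15 to 8.34 kb from the left end, beside the 218 bp in peaks of all lists.

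**Figure D4:**
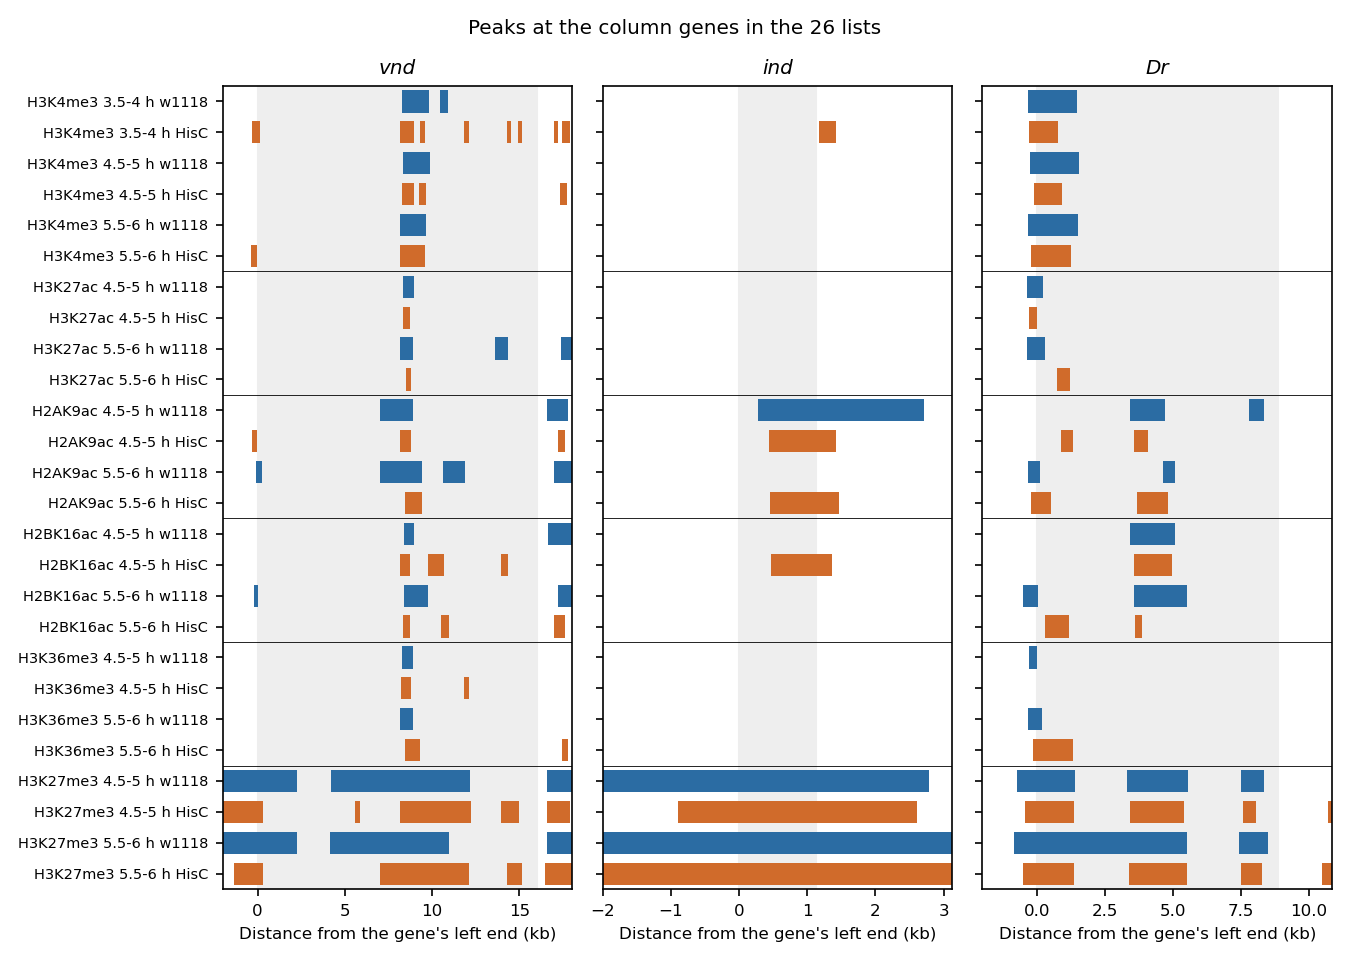
Peaks over the windows of vnd, ind and Dr, 1 line per list, against the distance in kb from the left end of the gene, with the gene span marked and bars for called peaks. H3K27me3 runs through the ind window while H3K4me3 has a single peak of 245 bp there, and at 5.5 to 6 h vnd has 3 H3K27ac and 4 H2AK9ac peaks in w1118 and 1 of each in HisC.

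The dorsal-column gene Dr had narrower H3K4me3 peaks in HisC. H3K4me3 covered 1804, 1809 and 1846 bp in w1118 from the earliest to the latest time and 1065, 1036 and 1464 bp in HisC. All 3 w1118 values lay above all HisC values at Dr and at SoxN, 2 of the 5 genes, against 9.42% of all genes. Among the 7246 genes with at least 500 bp in both later w1118 lists, 25.8% were lower by any amount at both later times. Dr and SoxN were 2 of the 4 genes described here on that base. At the latest time the values of Dr differed by less than 1.5-fold, so 0 of the 5 genes were lower at both later times, against 2.31% of all genes, and 0 were higher, against 8.11%. At 3.5 to 4 h Dr was the 1 gene of the 5 that was lower, against 14.9% of all genes, and 0 were higher, against 12.8%. The HisC peaks of H3K4me3 ended 0.762, 0.934 and 1.26 kb from the left end, and those of w1118 at 1.48, 1.54 and 1.52 kb.

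H3K27ac at Dr covered 568 and 657 bp in w1118 against 325 and 486 bp in HisC. At 4.5 to 5 h all 325 bp of the HisC peak lay inside that of w1118. At 5.5 to 6 h the HisC peak lay from 0.726 to 1.21 kb and shared 0 bp with the w1118 peak from -0.35 to 0.306 kb. H2BK16ac covered 1689 and 2487 bp in w1118 against 1395 and 1131 bp in HisC, lower at both times and short of the rule at the earlier, where all 1395 bp lay inside the w1118 peak. For H2BK16ac 0 of the 5 genes were lower, against 6.2% of all genes. In H3K36me3 Dr had 287 and 532 bp in w1118 against 0 and 1462 bp in HisC. By the same rule 0 of the 5 genes were lower in H3K36me3, against 15.1% of all genes.

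The intermediate-column gene ind lacked peaks of 3 active marks at the later times and had peaks of the acetylations H2AK9ac and H2BK16ac in part of the lists. No H3K4me3, H3K27ac or H3K36me3 peak met its window in any of the 12 later lists of these marks. The same was true of 17.4% of all genes, and of 16.4% of the 439 genes covered by H3K27me3 over at least 50% of the window in both w1118 lists. The single H3K4me3 peak of ind, of 245 bp, was in HisC at 3.5 to 4 h. H2AK9ac covered 2434 and 0 bp in w1118 against 992 and 1014 bp in HisC, and the first of these, 47.5% of the window, was a larger share than in 98.7% of genes. H2BK16ac covered 0 and 0 bp against 891 and 0 bp. These acetylation peaks all lay from 0.278 to 2.71 kb from the left end.

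The genes differed in whether H3K27me3 and active marks lay on the same bases. Of the H3K27me3 bases in the D window, 86.0% and 53.7% were under H3K4me3 in w1118 and 88.2% and 90.4% in HisC. For SoxN these shares were 61.8% and 41.1% in w1118 and 63.2% and 56.4% in HisC. In the genome they were 3.67% and 3.92% in w1118 and 12.7% and 10.1% in HisC, below D and SoxN in all 4 lists. For Dr the shares were 31.8% and 24.8% in w1118 and 23.1% and 28.3% in HisC, and for vnd 11.2% and 11.9% against 16.5% and 18.5%, also above the genome in all 4 lists. The share at ind was 0% throughout. The gene shares count only bases inside the windows, while the genome shares are not limited to windows around genes. At SoxN in w1118 at 4.5 to 5 h, 4489 bp of a 14871 bp H3K27me3 peak lay in the window. That share thus depends on where the window ends.

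With H3K27ac the Sox genes were further apart between genotypes. At D, 37.8% and 28.0% of the H3K27me3 bases were under H3K27ac in w1118 and 85.1% and 88.6% in HisC, and at SoxN 15.9% and 16.7% against 44.7% and 54.9%. In the genome, again not limited to windows, the shares were 9.26% and 11% in w1118 and 11.5% and 10.3% in HisC. At vnd they were 4.61% and 11% in w1118 and 4.33% and 3.2% in HisC, and at Dr 10.7% and 8.84% against 7.26% and 9.4%. Whether both marks lay on the same chromosomes or in different cells of the embryo cannot be told apart in whole-embryo lists. Nor was signal unrelated to the marks tested for, as no control list was used. Among the 439 genes under H3K27me3 over at least 50% of the window, vnd and SoxN were 2 of the 13.4% with at least 500 bp of H3K4me3 in all 4 later lists. Among all protein-coding genes vnd, Dr, SoxN and D were 4 of the 48.4% with this much.

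Between 4.5 to 5 h and 5.5 to 6 h in w1118, the values given above moved in different directions by mark. In H3K36me3, SoxN and D were lower at the later time by the 1.5-fold rule, 2 of the 5 genes, against 3.45% of all genes, and Dr was higher, against 14.8%. In H3K27me3 D was higher at the later time, against 2.73% of all genes. That share counts many genes without the mark, as the median H3K27me3 coverage of all genes was 0% in both w1118 lists. In H3K27ac vnd was higher, against 21.5% of all genes. In H2AK9ac ind and Dr were lower, against 23.9%, and vnd was higher, against 27.4%, and in H2BK16ac SoxN was higher, against 31.9%.

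In HisC steps in 4 marks met the rule. In H3K36me3 SoxN was lower at the later time, against 16.2% of all genes, and Dr was higher, against 10.8%. In H2AK9ac SoxN was lower, against 19.6%, and Dr was higher, against 25.5%. In H2BK16ac ind was lower, against 27.4%. In H3K4me3 vnd was lower at 4.5 to 5 h than at 3.5 to 4 h, against 11.9% of all genes. Steps in H2AK9ac and H2BK16ac were thus common in the whole genome.

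Over all 26 lists, vnd and Dr were the most alike of the 5 genes, with a mean absolute difference of 5.35 percentage points of the window, and ind and D the least, with 28.2. SoxN and D differed by 8.26 points. The genes nearest to vnd were C15, tup and mid, at 4.09, 4.41 and 4.44 points, beside a median over genes of 15.8. Those nearest to Dr were dpp, mirr and trh, at 4.44, 4.47 and 4.76 points, with a median of 14.4. The genes nearest to ind were nur, Dfd and Or67c, at 5.85, 5.99 and 6.24 points, with a median of 23.4. For SoxN they were noc, fkh and kni, at 7.41, 7.67 and 7.8 points with a median of 20.7, and for D they were Rac2, danr and Sfp26Ad, at 6.5, 6.75 and 7.37 points with a median of 21.4.

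Genes that act beside these 5 were read in the same way. Of 51 related genes in 6 lists, 46 had at least 500 bp of H3K27me3 in both w1118 lists, 19 were lower in HisC by the 1.5-fold rule and 3 higher, with a median difference of -17.5 points. All 19 were among the 46, a share near the 40.8% of marked genes that were lower, so the count says nothing particular of these lists. By list the medians ran from -22.3 points for the dorsoventral genes to -0.458 for the mesoderm markers, with -11.6 for the other Sox genes. Of 12 inputs and outputs of dorsoventral patterning, 8 were lower and 1, the gene of the transcription factor Dorsal (dl), was higher. The window of pnt, an ETS factor of the EGF receptor pathway, was covered over 22364 and 24940 bp in w1118 against 4703 and 4644 bp in HisC. The window of aos, which encodes a secreted inhibitor of that pathway, was covered over 6763 and 7649 bp in w1118 against 73 and 0 bp in HisC.

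Of 15 neuroblast and nerve cord genes, 6 were lower in H3K27me3 and 1, mira, was higher, again beside 40.8% of marked genes that were lower. The proneural gene ac had 4917 and 4268 bp in w1118 against 0 and 0 bp in HisC, and its neighbour sc had 4421 and 4414 bp against 972 and 1007 bp. These proneural genes act downstream of the column genes, and both met the rule. Of the 6 other Sox genes, 1 was lower and 1, Sox14, was higher. Sox102F had 21098 and 23629 bp in w1118 against 6332 and 7181 bp in HisC. Sox21b, a relative of D on the same chromosome arm (3L 14112405–14131324), had 11525 and 13338 bp in w1118 against 8105 and 8835 bp in HisC.

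Some markers of other parts of the embryo were lower in HisC by the 1.5-fold rule. In H3K27me3, 2 of 6 mesoderm markers, 1 of 8 dorsal ectoderm and amnioserosa markers and 1 of 4 endoderm markers were lower. None was higher. Of all genes 5.09% were lower and 15.3% higher, and of the 1741 marked genes 40.8% were lower and 6.72% higher. The median differences of the 3 lists, in the same order, were -0.458, -17.9 and -15.5 points of the window. The lower ones were Mef2, htl, tup and srp, the other markers named here falling short of the rule. Mef2 was little above the 500 bp floor, with 637 and 684 bp in w1118 against 0 and 416 bp in HisC. In w1118 this was 1.29% and 1.39% of its window. The gene tin, a heart and mesoderm homeobox gene, had 5359 and 5488 bp in w1118 against 5286 and 2434 bp in HisC, and htl, an FGF receptor gene of the mesoderm, 5195 and 4232 bp against 395 and 2142 bp. The GATA factor gene srp had 14945 and 12288 bp against 5219 and 7128 bp, and hkb, a gene of the embryo's ends, 4716 and 5171 bp against 3147 and 4475 bp. The LIM-homeobox gene tup had 15585 and 16332 bp against 9309 and 8712 bp, and Kr, a gap gene also active in the amnioserosa, 4697 and 4077 bp against 1738 and 2931 bp.

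In H3K27ac, 16 of the 51 related genes were lower in HisC, against 14.4% of all genes, and 3 higher, against 8.36%. Of the 1741 genes with at least 500 bp of H3K27me3 in both w1118 lists, 335 were lower in H3K27ac and 98 higher. The lower ones were 4 of 12 dorsoventral genes, 2 of 15 neuroblast genes, 2 of 6 mesoderm markers, 5 of 8 dorsal ectoderm and amnioserosa markers, 3 of 4 endoderm markers and 0 of 6 other Sox genes. The 3 higher ones were Sox14, the neuroblast gene wor and hkb. Over the gene spans alone 10 of the 51 were lower and 9 higher, so this split depended on the window. Some markers of mesoderm, endoderm and dorsal ectoderm thus differed beside the 5 genes, and their part in the values of the 5 genes was not tested.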

How the data were processed

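CUT&Tag libraries of 6 histone marks from w1118 and HisC embryos were analysed through the peak positions deposited by the authors, 1 list per group, with no height, score or depth. Per the submitters' processing notes, the tools and build named are dm6, Bowtie2 2.3.4.2, cutadapt 1.17, Trim Galore 0.6.6, deepTools 3.3.1 and SAMtools 1.9. The software that called peaks, its threshold and the pooling of libraries were not given in the sources used here. The deposited lists have names that give a narrow peak type for H3K4me3 and H3K27ac and a broad one for the remaining marks, with blacklisted regions removed. An exclusion that is not explained stands in the name of the earliest H3K4me3 list of HisC.

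Genes came from a RefSeq table of release 6 of the genome, which is dm6. Bases of each window inside peaks were summed with Python 3.11.15 and NumPy 2.4.6, with functions tested on simulated data, and figures were drawn with Matplotlib 3.10.9. The 5 genes, the 6 lists of related genes and the rules were chosen with earlier results of these data known. The DNA shared by all lists, the comparison of non-overlapping lists and the split into span and flanks were added after the window values were seen. Named genes were the 5, their neighbours, the 3 most alike genes for each, and the 2 genes of each related list with the largest H3K27me3 difference. Genes added outside this rule, chosen after their values were seen, were disco, CG18747, Mes2, Sox15, Sox14, dl, mira, wor and Mef2. No p-value was computed. The labels do not say that the libraries of a group came from separate collections. A planned search for promoter motifs was not run, and 22 libraries of 10 other groups were not analysed here.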

Additional observations from a re-analysis of the deposited data

Results flagged for a closer look

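At ind, H2AK9ac went in opposite directions at the 2 later times. HisC was below w1118 at 4.5 to 5 h, at 992 against 2434 bp, and above it by 1014 bp at 5.5 to 6 h, at 1014 against 0 bp.

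At Dr, H2AK9ac did the same, at 973 bp in HisC against 1868 bp in w1118 at 4.5 to 5 h and 1842 against 900 bp at 5.5 to 6 h, where HisC was above w1118 by 942 bp. The difference between the times was not tested at either gene, since each value comes from 1 list. Opposite differences past the 1.5-fold rule were found in H2AK9ac for 12.7% of all protein-coding genes.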

How the results depend on the processing

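Among differences of single genes under the alternatives, 17 of 240 changed sign, 12 of them where the 1.5-fold rule was met neither before nor after, such as SoxN in H3K27me3, at -15.6 percentage points of the window and 11.7 over the span alone. Without a change of sign, 6 passed the rule newly and 8 no longer passed it. With 500 bp each side of either gene end, the HisC minus w1118 difference turned to -3.02 percentage points at D and -29.9 at SoxN in H3K27ac, -32.2 at SoxN in H2AK9ac and -23.9 at SoxN in H3K36me3, where 0 genes were higher and 2 (Dr, SoxN) lower in H3K27ac, and 0 higher and 1 lower in H3K36me3. With equal numbers of the widest peaks the H3K36me3 difference of vnd turned to -1.26. At 2-fold, 1 gene (SoxN) was higher and 0 lower in H3K27ac. No gene (0) was higher in H3K36me3 at 2-fold, with equal numbers of peaks, over the span alone or with peaks of at least 500 bp. SoxN was the 1 gene higher in H2BK16ac over the span alone and with peaks of at least 500 bp. In the second of these settings 2 genes (vnd, Dr) were lower in H3K27ac. With 5 kb on each side 2 genes (SoxN, D) were lower in H3K27me3. With equal numbers of peaks 3 genes (vnd, Dr, SoxN) were lower in H3K4me3 at 3.5 to 4 h. Over the span alone 9 related genes were higher and 10 lower in H3K27ac. For DNA inside a peak of all 26 lists, a floor of 200 bp, chosen after seeing the data, was met by 2 genes (vnd, D). When H3K27me3 peaks were counted whole, 32 of 40 shares on the same DNA were larger, up to 100% at D. The counts under these alternatives are given without the share of all genes at the same setting. They show only which calls changed. The cause of these changes was not tested. No paired analysis was possible because each group has 1 list for all its libraries, and for the same reason no library could be left out. Depth is unknown, so a list with more reads behind it may hold more and wider peaks.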
